A study of Mus musculus with 12 samples.

Results

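Liver mRNA of C57BL/6J mice that had breathed 7% O2 for 24 h and then received dexamethasone (DEX) was compared with liver mRNA of untreated mice, to describe the state in which hypoxia and a glucocorticoid act together. The comparison used 6 of the 12 libraries of the series, 3 Hypoxia_DEX and 3 Normoxia_PBS. Of 54838 gene identifiers, 12394 reached 1 CPM (counts per 1000000 on TMM-scaled library sizes) in at least 3 of these 6 libraries and were tested. Il1r2 lay just inside that limit with a third-highest value of 1.01 CPM, and Rtl5 just outside it with 0.991 CPM.

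All mice were of the same inbred strain and were sampled 2 h after an intraperitoneal injection. Hypoxia_DEX mice breathed 7% O2 for 24 h and were given DEX at 10 mg/kg. Hypoxia_PBS mice breathed 7% O2 and were given PBS, Normoxia_DEX mice breathed 21% O2 and were given DEX at 10 mg/kg, and Normoxia_PBS mice breathed 21% O2 and were given PBS. Each group held 3 libraries that the labels call biological replicates. The Hypoxia_PBS and Normoxia_DEX libraries entered the same model and were used to place the combined state beside each single treatment. The series asks, by its title, how hypoxia reprograms what the glucocorticoid receptor does.

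Dexamethasone is a synthetic ligand of the glucocorticoid receptor, a nuclear receptor that on binding hormone activates genes of glucose production, amino acid breakdown and fat handling in the liver and holds down inflammatory genes. Low oxygen stabilises the hypoxia-inducible factors (HIF), transcription factors that raise glycolysis, mitophagy and iron-handling genes. Corticosterone, the glucocorticoid of mice, is the receptor's natural ligand and rises in stress.

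The 6 libraries held 12464687 to 20246461 counts, and all 12 held up to 24715995. On the 1000 most variable genes the first principal component, 49.8% of the variance, separated hypoxic from normoxic libraries, and the second, 34.4%, separated DEX from PBS. On that second component Hypoxia_DEX-2 lay at 8.7 while its group mates lay at 20.02 and 19.89, and Hypoxia_PBS-1 lay at -8.19 while its group mates lay at -24.56 and -22.8. Hypoxia_DEX-1 and Hypoxia_DEX-3 differed by a mean chi-square of 1.79 per gene, against 10.54 to 38.45 for every other pair of the same group. That is above the value of sampling noise alone, with 9.16% of genes over the 95% limit, so both were kept as separate samples. The comparison does not tell 2 animals from 2 preparations of 1 animal, and in the second case every Hypoxia_DEX mean, SD and p with n = 3 would rest on 2 animals. With this pair summed into 1 library, 2840 genes were called higher and 2717 lower than in Normoxia_PBS, against 3235 and 3182. For genes chosen by the naming rule, a call against Normoxia_PBS lost in that way is given beside the gene. Calls of single genes in comparisons other than Hypoxia_DEX against Normoxia_PBS were read from the fit of all 12 libraries only. The hepatocyte markers summed to 164860 to 176900 CPM in Hypoxia_DEX and 136500 to 147330 CPM in Normoxia_PBS, with albumin (Alb) at 106590.0 ± 3493 CPM in Hypoxia_DEX and 94987 ± 3404 CPM in Normoxia_PBS (SD, n = 3 each). Of the 14 measured hepatocyte markers 3 were called higher and 5 lower, with a median log2 fold change of 0.012. The TMM factors were 0.919 to 0.945 in Hypoxia_DEX and 1.04 to 1.12 in Normoxia_PBS, which raises Hypoxia_DEX CPM values against Normoxia_PBS ones. The pancreatic acinar list summed to at most 4.37 CPM in Hypoxia_DEX and 7.64 CPM in Normoxia_PBS.

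Of the tested transcriptome 51.8% of genes differed between the combined treatment and untreated liver. In Hypoxia_DEX 3235 genes were higher (26.1% of those tested) and 3182 were lower (25.7%) at an edgeR adjusted p under 0.05, the threshold used throughout. A change of at least 2-fold was found for 791 higher genes (6.38%) and 932 lower genes (7.52%), and of at least 4-fold for 220 and 167. The 3 Hypoxia_DEX libraries did not overlap the 3 Normoxia_PBS libraries in 7601 genes (61.3%). For 5141 genes (41.5%) no difference was called and the 95% interval lay within 2-fold in either direction. Changes smaller than 2-fold may still be present in these genes. The median log2 fold change over all tested genes was -0.013. Leaving out each of the 12 libraries in turn gave 2706 to 3376 higher and 2648 to 3393 lower genes.

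**Figure D1:**
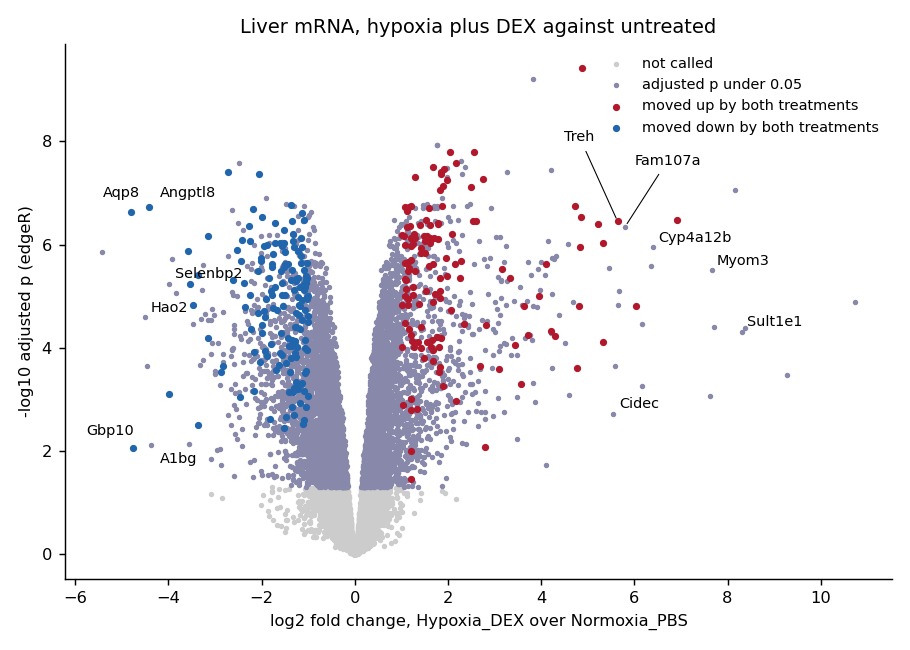
Each point is 1 of 12394 genes, with the log2 fold change of Hypoxia_DEX over Normoxia_PBS on the x axis and -log10 of the edgeR adjusted p on the y axis (n = 3 each). The 6 largest rises and 6 largest falls chosen by the naming rule are labelled, and the 134 and 154 genes displaced beyond both single treatments are coloured and lie on both sides.

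The largest rises joined a hormone-inactivating enzyme, fat-droplet and fatty acid enzymes and a DEX-responsive gene. Sult1e1, estrogen sulfotransferase (chromosome 5, 87575969 to 87591594 on mm10), had 200.1, 146 and 215 CPM in the Hypoxia_DEX libraries, against 0.875, 0.206 and 0.726 CPM in Normoxia_PBS (log2 fold change 8.31 with SE 1.02 and adjusted p = 4.84e-05). It was 135, 51.6 and 50.1 CPM in Hypoxia_PBS and 3.18, 12.3 and 4.38 CPM in Normoxia_DEX, so every treated library lay above every untreated one. Myom3, a sarcomere M-band protein of muscle, had 27.5, 17.1 and 29.99 CPM in Hypoxia_DEX and 0.117, 0.0514 and 0.198 CPM in Normoxia_PBS (log2 fold change 7.66 with SE 1.12 and adjusted p = 3.11e-06). Cidec, which enlarges lipid droplets, had 36.9, 22.9 and 36.4 CPM in Hypoxia_DEX and 0.992, 0.309 and 0.792 CPM in Normoxia_PBS (log2 fold change 5.55 with SE 1.26 and adjusted p = 0.00189), while Hypoxia_PBS was uneven at 53.002, 3.76 and 15.6 CPM.

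Treh, the enzyme that splits trehalose, had 11.7, 5.68 and 12.2 CPM in Hypoxia_DEX and 0.292, 0.206 and 0.066 CPM in Normoxia_PBS (log2 fold change 5.64 with SE 0.56 and adjusted p = 3.54e-07). Cyp4a12b, a fatty acid omega-hydroxylase with a near-identical neighbour that can share its reads, averaged 5.45 ± 1.34 CPM in Hypoxia_DEX and 0.0609 ± 0.0585 CPM in Normoxia_PBS (log2 fold change 6.40). Fam107a, an actin-binding stress gene, had 19.6, 26.9 and 16.9 CPM in Hypoxia_DEX, 0.762, 1.59 and 0.6 CPM in Hypoxia_PBS, 32.6, 44.4 and 37.2 CPM in Normoxia_DEX and 0.525, 0.154 and 0.462 CPM in Normoxia_PBS. Of these 6 genes Fam107a was the one at its highest mean in Normoxia_DEX. Its rise over untreated liver was 5.80 on the log2 scale (adjusted p = 4.47e-07), and it was lower in Hypoxia_DEX than in Normoxia_DEX by a log2 fold change of -0.86 (adjusted p = 0.00655).

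The largest falls included a water channel, a peroxisomal oxidase and a secreted lipase regulator. Aqp8, an aquaporin of the bile canaliculus (chromosome 7, 123462291 to 123468004), had 5.39, 4.64 and 4.78 CPM in Hypoxia_DEX and 127, 143 and 143 CPM in Normoxia_PBS (log2 fold change -4.80 with SE 0.23 and adjusted p = 2.3e-07). Hao2, a peroxisomal 2-hydroxyacid oxidase, had 0.299, 1.49 and 0.531 CPM in Hypoxia_DEX and 11.4, 21.9 and 14.1 CPM in Normoxia_PBS (log2 fold change -4.496), and Selenbp2, a selenium-binding protein, averaged 1.4 ± 0.291 CPM in Hypoxia_DEX and 21.7 ± 7.11 CPM in Normoxia_PBS (SD, n = 3 each, log2 fold change -3.98). For all 3 the groups were far apart, and Hypoxia_PBS was low as well, with means of 9.57, 1.93 and 1.7 CPM. A1bg was lower with a log2 fold change of -4.38 (adjusted p = 0.00754), but its libraries were scattered within every group, with 4.01, 22.2 and 4.88 CPM in Hypoxia_DEX and 148, 422 and 50.2 CPM in Normoxia_PBS. Gbp10 and Angptl8, the other 2, are described below.

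**Figure D2:**
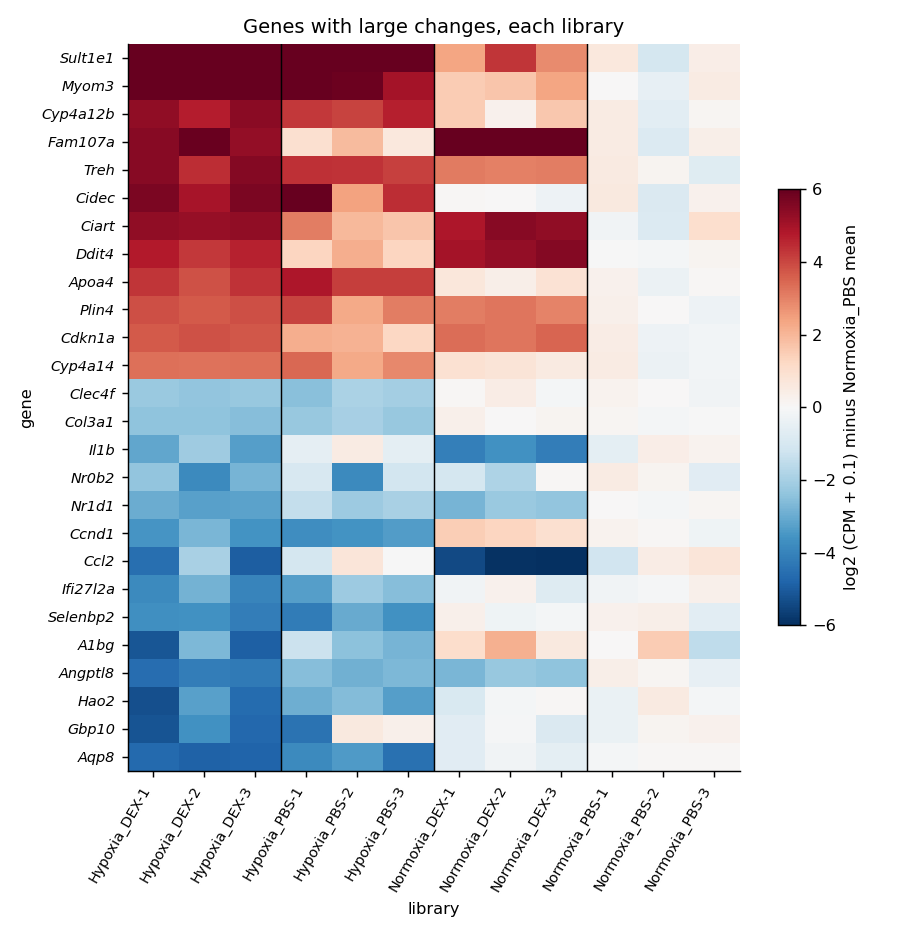
Each cell is log2 (CPM + 0.1) of 1 library minus the Normoxia_PBS mean, for 26 genes in rows ordered by the change in Hypoxia_DEX and 12 libraries in columns, with colours ending at 6 on the log2 scale. The 12 genes of the naming rule are joined by 14 list genes picked for drawing after their values were seen. The Hypoxia_DEX block repeats the Hypoxia_PBS pattern for genes such as Apoa4 and Clec4f and the Normoxia_DEX pattern for Fam107a and Ciart.

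Genes displaced beyond both single treatments were counted next. A gene was taken as moved by both treatments together where Hypoxia_DEX was at least 2-fold from Normoxia_PBS and was called in the same direction against Hypoxia_PBS and against Normoxia_DEX. These comparisons share the Hypoxia_DEX libraries and chose the genes, so their values describe the set. In all, 134 genes (1.08% of those tested) were moved up and 154 (1.24%) down. Without the 2-fold limit 327 and 309 genes were called in all 3 comparisons. On the higher side Rrp12 lay just outside the limit at a log2 fold change of 0.989, and on the lower side Tlnrd1 lay just inside at -1.0014 and Stat6 just outside at -0.997. Against Hypoxia_PBS 7.71% of all genes were called higher and 7.31% lower (15% together), and against Normoxia_DEX 23.2% and 22% (45.2%).

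The counts depended on single libraries. Without Hypoxia_PBS-1 they were 203 up and 220 down. Without Hypoxia_DEX-1 they were 88 and 81, without Hypoxia_DEX-3 82 and 81, without Hypoxia_PBS-3 the upper count was 81, and without Hypoxia_PBS-2 the lower count was 99. With the Hypoxia_DEX-1 and Hypoxia_DEX-3 pair summed they were 95 and 88, and with Hypoxia_DEX-2 and Hypoxia_PBS-1 left out 238 and 256. Of the 134, 63 stayed in the set in all 18 refits that gave all 4 groups, and of the 154, 51 did.

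Among the 134 genes moved up, 70 were called higher in both single treatments, 30 in Hypoxia_PBS alone, 12 in Normoxia_DEX alone and 19 were called in neither. Of the other 3, 1 was higher in hypoxia and lower with DEX, 1 was lower in hypoxia alone and 1 lower with DEX alone. Over all genes hypoxia alone called 19.1% higher and 18.8% lower (37.9%), and DEX alone 9.56% and 8.57% (18.1%). The difference between the DEX response in hypoxia and in normoxia (the interaction) was called in 10 of the 134, against 1.41% of all genes tested (0.444% positive and 0.968% negative), and had an unadjusted p under 0.05 in 56. Among the 154 moved down, 39 were called lower in both single treatments, 65 in Hypoxia_PBS alone, 14 in Normoxia_DEX alone and 36 in neither, and the interaction was called in 6, with an unadjusted p under 0.05 in 71. The interaction enters the comparisons that chose the genes, so these shares are descriptions. Leaving out 1 library at a time moved the 16 interaction calls of both sets to between 6 (without Hypoxia_DEX-1 or without Hypoxia_DEX-3) and 53 (without Hypoxia_PBS-1), and DESeq2 gave 48.

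Pdk4 had the largest step beyond both single treatments among the genes moved up. It encodes pyruvate dehydrogenase kinase 4, which switches pyruvate away from oxidation and is a known target of glucocorticoids and fasting (chromosome 6, 5483351 to 5496309). The Hypoxia_DEX libraries held 166, 165 and 183 CPM, against 21.9, 9.98 and 12.1 CPM in Hypoxia_PBS, 13.4, 12.6 and 17.7 CPM in Normoxia_DEX and 55.4, 10.8 and 7.59 CPM in Normoxia_PBS. No other library came near the 3 Hypoxia_DEX ones, and Normoxia_PBS-1 stood apart from its group. The rise over untreated liver had a log2 fold change of 2.80 (SE 0.64, edgeR adjusted p = 0.00819), and the steps over Hypoxia_PBS and Normoxia_DEX were 3.54 (adjusted p = 0.012) and 3.56 (adjusted p = 0.00355). Neither single treatment was called, at -0.74 (adjusted p = 0.43) for hypoxia and -0.76 (adjusted p = 0.52) for DEX. The interaction was 4.30 with an adjusted p of 0.0843, short of the threshold. With only the 6 compared libraries in the fit the rise was 2.79 with an adjusted p of 0.0575, and without Hypoxia_PBS-3 Pdk4 left the set.

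Other genes of pyruvate entry into mitochondria were in the same set, picked for description after their values were seen. Pdp2, a phosphatase that reactivates the pyruvate dehydrogenase complex, had 86.5, 89.2 and 91.999 CPM in Hypoxia_DEX, 29.4, 23.4 and 24.1 CPM in Hypoxia_PBS, 57.2, 45.8 and 64.4 CPM in Normoxia_DEX and 52.2, 36.9 and 43.5 CPM in Normoxia_PBS. Hypoxia alone lowered it (-0.78, adjusted p = 0.00123), the combination raised it (1.01, adjusted p = 9.43e-05), and the interaction was called (1.46, adjusted p = 0.0039). The E1 subunit genes Pdha1 and Pdhb averaged 267 ± 21.7 and 159 ± 22.9 CPM in Hypoxia_DEX and 113 ± 6.03 and 75.4 ± 3.87 CPM in Normoxia_PBS (SD, n = 3 each). Their Hypoxia_PBS means were 211 and 114 CPM, and hypoxia alone changed them by 0.90 (adjusted p = 2.47e-05) and 0.60 (adjusted p = 0.00073) on the log2 scale. Pdp2 left the set without Hypoxia_DEX-3, Hypoxia_PBS-3, Normoxia_DEX-1, Normoxia_PBS-2 or Normoxia_PBS-3, and Pdha1 in 6 of the 18 refits, among them those without Hypoxia_DEX-1 or Hypoxia_DEX-3.

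Itga2, the collagen-binding integrin alpha 2 chain (chromosome 13, 114833081 to 114932100), had 17.95, 7.87 and 16.4 CPM in Hypoxia_DEX, 3.17, 0.506 and 1.33 CPM in Hypoxia_PBS, 3.24, 1.27 and 2.84 CPM in Normoxia_DEX and 0.408, 0.412 and 0.198 CPM in Normoxia_PBS. Every Hypoxia_DEX library was above every other library. Against untreated liver its log2 fold change was 5.33 (SE 0.83, adjusted p = 7.71e-05), and both single treatments were called higher as well (2.29, adjusted p = 0.0454 for hypoxia and 2.75, adjusted p = 0.0281 for DEX). Snhg5, a noncoding host gene of small nucleolar RNAs, rose in even steps, with 27.2 ± 1.2 CPM in Hypoxia_DEX, 10.1 ± 1.78 in Hypoxia_PBS, 10.98 ± 0.242 in Normoxia_DEX and 3.98 ± 0.769 in Normoxia_PBS (SD, n = 3 each). Its combined change of 2.76 was near the sum of 1.33 for hypoxia and 1.45 for DEX, with an interaction of -0.021 (adjusted p = 0.98).

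Usp2, a deubiquitinase of the circadian clock, rose with each treatment and further with both. It had 57.8, 43.6 and 53.6 CPM in Hypoxia_DEX, 25.2, 15.6 and 14.5 CPM in Hypoxia_PBS, 22.6, 26.7 and 17.8 CPM in Normoxia_DEX and 2.04, 2.73 and 5.41 CPM in Normoxia_PBS, with no overlap between Hypoxia_DEX and any other group. Its combined change of 3.95 was below the sum of 2.47 for hypoxia and 2.75 for DEX, with an uncalled interaction of -1.27 (adjusted p = 0.255). Dnmbp, a guanine nucleotide exchange factor for Cdc42, and Zfp36l2, an mRNA-decay factor, rose in the combination while neither single treatment was called for them. Dnmbp averaged 83.6 ± 6.82 CPM in Hypoxia_DEX, against means of 28.5 CPM in Hypoxia_PBS, 35.003 in Normoxia_DEX and 26.1 in Normoxia_PBS. Zfp36l2 averaged 87.7 ± 3.54 CPM in Hypoxia_DEX, against means of 36.6 CPM in Hypoxia_PBS, 33.01 in Normoxia_DEX and 37.8 in Normoxia_PBS. Their interactions were 1.12 (adjusted p = 0.144) and 1.45 (adjusted p = 0.0683), so the difference between the DEX responses itself was not called for either.

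The upward set also held genes of fat release, mitophagy and amino acid handling. Pnpla2, the triglyceride lipase of lipid droplets, averaged 165 ± 12.2 CPM in Hypoxia_DEX and 54.1 ± 5.73 CPM in Normoxia_PBS, with 99.998 and 86.7 CPM in Hypoxia_PBS and Normoxia_DEX. The mitophagy receptor Bnip3 averaged 436 ± 24.2 CPM in Hypoxia_DEX, 299.8 ± 29.9 in Hypoxia_PBS, 249 ± 23.8 in Normoxia_DEX and 121 ± 6.02 in Normoxia_PBS. Sdsl, a serine dehydratase-like enzyme, averaged 23.7 ± 2.63 CPM in Hypoxia_DEX and 8.27 ± 1.24 CPM in Normoxia_PBS, and Amacr, an alpha-methylacyl-CoA racemase of peroxisomes, 316 ± 7.14 CPM in Hypoxia_DEX and 88.04 ± 10.9 CPM in Normoxia_PBS (SD, n = 3 each). Pnpla2, named here after its values were seen, and Bnip3, Sdsl and Amacr stayed in the set in all 18 refits.

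Promoters of the named genes were read because the set was defined by a joint response to hormone and hypoxia. RefSeq windows on GRCm38.p6 (mm10), 250 bases upstream of the start, are shown for Pdk4 and Itga2, which moved up, and Loxl4 and Serpina7, which moved down, all on the minus strand and written 5′ to 3′. Capitals mark a glucocorticoid receptor half-site (AGAACA) or a hypoxia response core (ACGTG or GCGTG), on either strand. The windows are Pdk4 chr6:5496279-5496528, Itga2 chr13:114932101-114932350, Loxl4 chr19:42612807-42613056 and Serpina7 chrX:139085237-139085486.
Pdk4: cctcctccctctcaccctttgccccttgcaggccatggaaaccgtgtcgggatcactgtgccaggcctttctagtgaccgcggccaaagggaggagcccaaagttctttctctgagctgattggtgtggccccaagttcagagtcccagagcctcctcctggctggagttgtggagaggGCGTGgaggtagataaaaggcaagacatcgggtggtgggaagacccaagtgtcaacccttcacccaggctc
Itga2: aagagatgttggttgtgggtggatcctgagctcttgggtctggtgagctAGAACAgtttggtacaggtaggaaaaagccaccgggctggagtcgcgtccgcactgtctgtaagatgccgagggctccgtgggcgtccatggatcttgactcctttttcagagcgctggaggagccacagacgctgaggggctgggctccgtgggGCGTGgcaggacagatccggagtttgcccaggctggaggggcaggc
Loxl4: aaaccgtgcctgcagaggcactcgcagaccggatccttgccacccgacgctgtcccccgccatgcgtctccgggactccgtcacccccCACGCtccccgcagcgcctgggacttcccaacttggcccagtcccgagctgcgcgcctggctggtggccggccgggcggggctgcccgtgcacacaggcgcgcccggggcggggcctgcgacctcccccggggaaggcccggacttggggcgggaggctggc
Serpina7: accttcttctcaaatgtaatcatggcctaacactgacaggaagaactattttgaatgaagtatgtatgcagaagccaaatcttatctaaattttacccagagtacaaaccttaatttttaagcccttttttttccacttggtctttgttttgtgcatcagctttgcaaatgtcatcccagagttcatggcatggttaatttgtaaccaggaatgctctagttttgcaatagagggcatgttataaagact

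The Pdk4 window held a hypoxia core starting 71 bases before the start and no half-site. Itga2 held a half-site at 201 and a hypoxia core at 46 bases before the start, Loxl4 a hypoxia core at 162, and Serpina7, for which the table lists 2 starts, neither motif. Of the 89 upward genes with an entry, 14.6% held the half-site and 73% the hypoxia core, and of the 117 downward genes 12% and 46.2%. Over the 9437 tested genes with an entry the shares were 13.2% and 60.8%, and over all 27025 genes with a RefSeq window they were 18.2% and 41.5%. The full element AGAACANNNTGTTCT was in neither set and in 3 of those 27025 genes. A match is a run of letters and not a bound site.

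**Figure D3:**
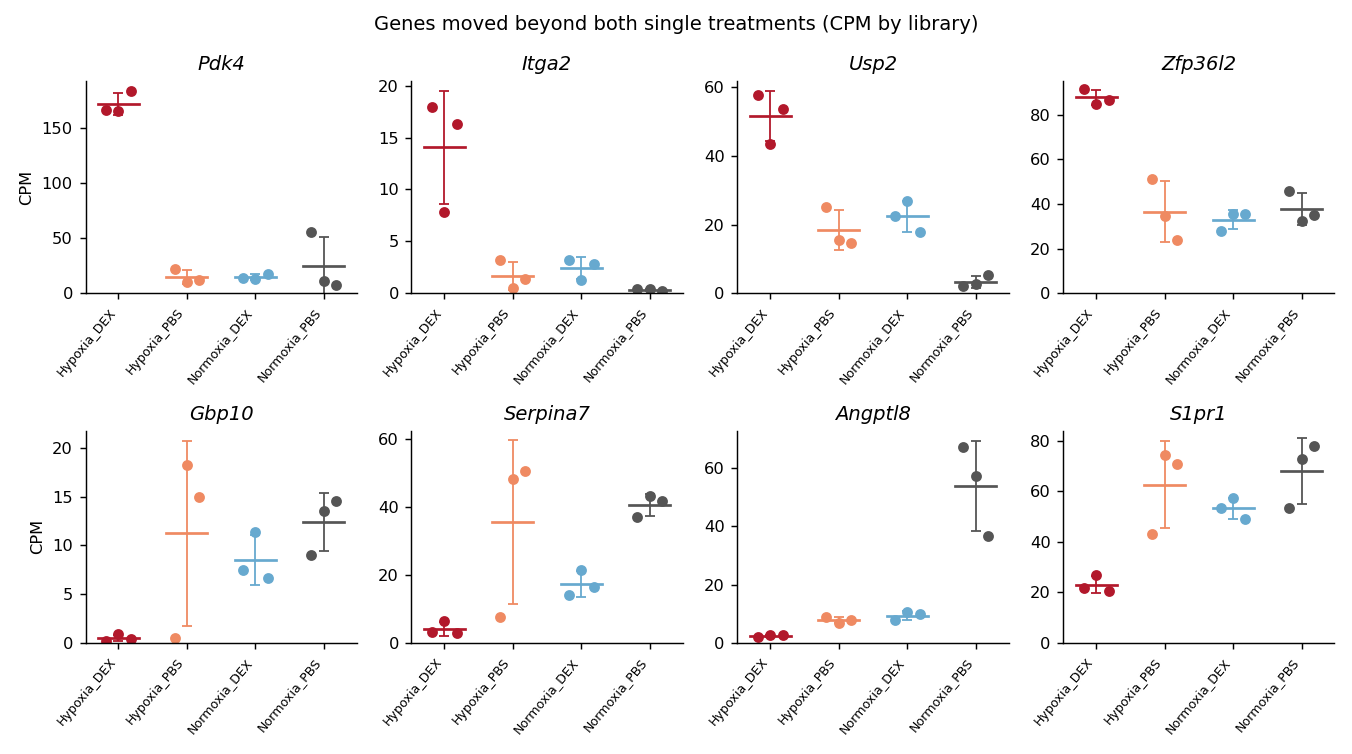
CPM (y axis) in each of 4 groups (x axis) for 8 genes displaced beyond both single treatments, with points for libraries 1 to 3 from left to right, a line for the mean and bars for SD (n = 3). Pdk4, Itga2, Usp2 and Zfp36l2 are highest in Hypoxia_DEX and Gbp10, Serpina7, Angptl8 and S1pr1 lowest, and Hypoxia_PBS-1 lies near the Hypoxia_DEX level for Gbp10 and Serpina7.

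Among the genes moved down, Angptl8 combined a large change with libraries that lay close together within each treated group and were more spread in Normoxia_PBS. It encodes a secreted protein made after feeding that restrains lipoprotein lipase (chromosome 9, 21835510 to 21837347). Hypoxia_DEX held 2.09, 2.8 and 2.65 CPM, Hypoxia_PBS 8.74, 6.94 and 7.99 CPM, Normoxia_DEX 7.73, 10.6 and 9.81 CPM and Normoxia_PBS 67.2, 57.3 and 36.8 CPM. The groups did not overlap with Hypoxia_DEX at any point, and the change against untreated liver was -4.43 (SE 0.25, adjusted p = 1.89e-07). Each treatment alone lowered it, with log2 fold changes of -2.76 for hypoxia and -2.52 for DEX, and the interaction of 0.85 (adjusted p = 0.297) was not called. Angptl8 stayed in the set in all 18 refits.

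S1pr1, a sphingosine-1-phosphate receptor of endothelium named after its values were seen, had 21.9, 26.8 and 20.4 CPM in Hypoxia_DEX, 42.98, 74.3 and 70.8 CPM in Hypoxia_PBS, 53.3, 57.4 and 49.2 CPM in Normoxia_DEX and 53.3, 72.7 and 77.96 CPM in Normoxia_PBS. Hypoxia_DEX was below all others, and neither single treatment was called. Ccnd2, a cyclin of the G1 phase, averaged 4.23 ± 0.364 CPM in Hypoxia_DEX, 9.9999 ± 3.06 in Hypoxia_PBS, 9.04 ± 0.649 in Normoxia_DEX and 17.7 ± 1.34 in Normoxia_PBS, and was lowered by each treatment. Both genes stayed in the set in all 18 refits. The tubulin and actin genes Tubb5, Tuba1b and Actg1 were also members, named after their values were seen, with Hypoxia_DEX means of 20.7, 1.94 and 9.2 CPM against 44.3, 4.55 and 30.9 CPM in Normoxia_PBS. Each of the 3 left the set without Hypoxia_DEX-1, and Actg1 in 10 of the 18 refits.

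Aqp8, described above, was also a member of the set, but left it without any 1 Hypoxia_DEX library, without Hypoxia_PBS-1 or Hypoxia_PBS-2, with the near-identical pair summed and with no CPM limit. Gbp10, an interferon-inducible guanylate-binding protein with close relatives that can share its reads, had 0.239, 0.875 and 0.372 CPM in Hypoxia_DEX, 0.469, 18.3 and 14.99 CPM in Hypoxia_PBS, 7.5, 11.4 and 6.66 CPM in Normoxia_DEX and 9.04, 13.5 and 14.6 CPM in Normoxia_PBS (log2 fold change -4.75 with SE 1.49 and adjusted p = 0.00862 against untreated liver). Serpina7, thyroxine-binding globulin (chromosome X, 139079257 to 139085236), had 3.11, 6.47 and 2.87 CPM in Hypoxia_DEX, 7.68, 48.2 and 50.5 CPM in Hypoxia_PBS, 14.1, 21.6 and 16.6 CPM in Normoxia_DEX and 36.99, 43.1 and 41.7 CPM in Normoxia_PBS (log2 fold change -3.36 with SE 0.68 and adjusted p = 0.00305). In both genes Hypoxia_PBS-1 was as low, or nearly as low, as the Hypoxia_DEX libraries.

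Loxl4, a lysyl oxidase of the matrix, averaged 1.08 ± 0.615 CPM in Hypoxia_DEX and 7.34 ± 1.82 CPM in Normoxia_PBS, and Ngfr, the p75 neurotrophin receptor, 2.06 ± 1.09 CPM in Hypoxia_DEX and 10.8 ± 2.63 CPM in Normoxia_PBS (SD, n = 3 each). Against untreated liver their log2 fold changes were -2.84 (adjusted p = 0.000224) and -2.46 (adjusted p = 0.000884) by edgeR. Without Hypoxia_DEX-1, and likewise without Hypoxia_DEX-3, Gbp10, Serpina7, Loxl4 and Ngfr each left the set, and Gbp10 kept its place in 9 of 18 refits. Their falls against untreated liver were called in every refit.

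Return to the untreated level was examined in both directions. A gene counted as returned from hypoxia where Hypoxia_PBS was at least 2-fold from Normoxia_PBS, Hypoxia_DEX was called back in the opposite direction against Hypoxia_PBS, and Hypoxia_DEX was not called against Normoxia_PBS with its 95% interval within 2-fold. Hypoxia raised 510 genes at least 2-fold (4.11%), DEX lowered 26 of them in hypoxia, and 11 met the full definition. Hypoxia lowered 533 genes (4.3%), DEX raised 25 of them, and 12 met it. Over all genes DEX in hypoxia called 7.31% lower and 7.71% higher, so neither reversal was more frequent among the hypoxia-changed genes than among all genes. The comparisons share the Hypoxia_PBS and Normoxia_PBS libraries, so these counts are descriptions. The interaction is formed from the group means that chose these genes, so its calls among them are descriptions too. With the interval held within 1.5-fold, 2 and 1 genes remained.

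Leaving out Hypoxia_PBS-1 gave 20 raised and returned genes, and leaving out Hypoxia_DEX-1 or Hypoxia_DEX-3 gave 7 and 5. The lowered and returned count was 6 without Hypoxia_DEX-1 or without Hypoxia_DEX-3 and 4 without Hypoxia_PBS-3. With Hypoxia_DEX-1 and Hypoxia_DEX-3 summed the counts were 8 raised and 8 lowered. Exph5 was the 1 raised gene kept in all 18 refits, and Bcl2, Ms4a6b and the clone gene Gm6277 were the 3 lowered ones. Exph5 and Bcl2 are named for that reason, after their values were seen.

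Exph5, a Rab27 effector of vesicle transport, had 4.79, 5.95 and 5.47 CPM in Hypoxia_DEX, 11.1, 10.1 and 8.86 CPM in Hypoxia_PBS and 4.67, 4.42 and 4.75 CPM in Normoxia_PBS, with Normoxia_DEX at 6.99, 7.34 and 6.29 CPM. Hypoxia_PBS stood above the other 3 groups. The interval of Hypoxia_DEX against Normoxia_PBS was -0.07 to 0.51 on the log2 scale, and the interaction was called (-1.48, adjusted p = 0.00173). Jag1, a Notch ligand, had 5.81, 6.12 and 5.04 CPM in Hypoxia_DEX, 7.09, 13.9 and 13.2 CPM in Hypoxia_PBS and 4.38, 5.61 and 4.88 CPM in Normoxia_PBS, with Hypoxia_PBS-1 lower than the other hypoxic PBS libraries.

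Il22ra1, a chain of the interleukin-22 receptor, averaged 2.02 ± 0.998 CPM in Hypoxia_DEX, 5.39 ± 0.875 in Hypoxia_PBS, 0.341 ± 0.133 in Normoxia_DEX and 1.76 ± 0.209 in Normoxia_PBS, so hypoxia raised it, DEX lowered it and the combination lay at the untreated level. Lonrf3, a ring-finger protein, averaged 3.04 ± 0.606 CPM in Hypoxia_DEX, 5.94 ± 1.07 in Hypoxia_PBS and 2.61 ± 0.267 in Normoxia_PBS. Prickle1, a planar cell polarity protein, averaged 5.22 ± 1.85 CPM in Hypoxia_DEX, 9.93 ± 2.98 in Hypoxia_PBS and 4.08 ± 1.09 in Normoxia_PBS. Zfp608, a zinc finger protein, averaged 3.51 ± 0.871 CPM in Hypoxia_DEX, 6.56 ± 0.396 in Hypoxia_PBS and 2.49 ± 0.657 in Normoxia_PBS (SD, n = 3 each). Prickle1 and Zfp608 kept their place in 7 and 8 of the 18 refits, and Zfp608 was called higher than untreated without Hypoxia_DEX-3 (0.67, adjusted p = 0.0353) or without Normoxia_PBS-3 (0.71, adjusted p = 0.0195).

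The genes lowered by hypoxia and returned with DEX included the cytosolic gatekeeper of gluconeogenesis, Pck1 (chromosome 2, 173153048 to 173159273). It had 1696, 1396 and 1681 CPM in Hypoxia_DEX, 811, 703 and 615 CPM in Hypoxia_PBS, 2279.7, 2153 and 2720.2 CPM in Normoxia_DEX and 1746, 922 and 1656 CPM in Normoxia_PBS. Hypoxia_PBS was below every Hypoxia_DEX library, while Hypoxia_DEX lay within the untreated range, with an interval of -0.32 to 0.60 on the log2 scale against Normoxia_PBS. Normoxia_PBS-2 was the low untreated library, and without it the log2 fold change of Hypoxia_DEX over Normoxia_PBS was -0.11 in place of 0.14, uncalled in both. Pck1 left the set under the replicate block and without Hypoxia_PBS-3, Normoxia_PBS-1 or Normoxia_PBS-3.

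Ms4a6b, a membrane protein of the MS4A family with close relatives that can share its reads, had 3.59, 3.06 and 3.29 CPM in Hypoxia_DEX, 0.762, 0.94 and 0.866 CPM in Hypoxia_PBS, 8.18, 12.3 and 9.13 CPM in Normoxia_DEX and 2.28, 3.19 and 3.1 CPM in Normoxia_PBS. DEX raised it in both oxygen conditions and hypoxia lowered it in both injection groups, and the interaction of 0.16 (adjusted p = 0.882) was not called. Its neighbour Ms4a6c averaged 8.38 ± 2.52 CPM in Hypoxia_DEX, 2.37 ± 0.981 in Hypoxia_PBS, 15.3 ± 2.66 in Normoxia_DEX and 6.26 ± 0.476 in Normoxia_PBS. Bcl2, the apoptosis inhibitor, averaged 2.25 ± 0.175 CPM in Hypoxia_DEX, 1.17 ± 0.107 in Hypoxia_PBS and 2.56 ± 0.124 in Normoxia_PBS (SD, n = 3 each).

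Pnpla3, a lipid-droplet protein linked to fatty liver, averaged 1.82 ± 0.278 CPM in Hypoxia_DEX, 0.631 ± 0.152 in Hypoxia_PBS, 10.8 ± 4.79 in Normoxia_DEX and 1.67 ± 0.608 in Normoxia_PBS, and so met the definition for both treatments. It kept its place among the hypoxia-lowered genes in 6 of 18 refits, and its uncalled log2 fold change against untreated liver of 0.11 was -0.018 without Hypoxia_DEX-1 and -0.15 without Normoxia_PBS-1. Gstm3, a glutathione transferase, averaged 37.4 ± 4.72 CPM in Hypoxia_DEX, 20.3 ± 5.54 in Hypoxia_PBS and 52.98 ± 11.8 in Normoxia_PBS, and Srrm4, a splicing regulator, 19.4 ± 2.12 CPM in Hypoxia_DEX, 10.03 ± 4.04 in Hypoxia_PBS and 25.5 ± 1.88 in Normoxia_PBS. Both Hypoxia_DEX means lay below the untreated ones without a call. Gstm3 was called lower without Hypoxia_PBS-2 (-0.50, adjusted p = 0.0366), Hypoxia_PBS-3 (-0.53, 0.0296) or Normoxia_PBS-1 (-0.70, 0.0111). With all libraries DESeq2 also called Gstm3 lower (-0.50, adjusted p = 0.0324). Srrm4 was called lower with only the 6 compared libraries (-0.41, adjusted p = 0.00699). It was also called without Hypoxia_PBS-1 (-0.40, adjusted p = 0.0421) or Hypoxia_PBS-3 (-0.42, 0.0279).

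**Figure D4:**
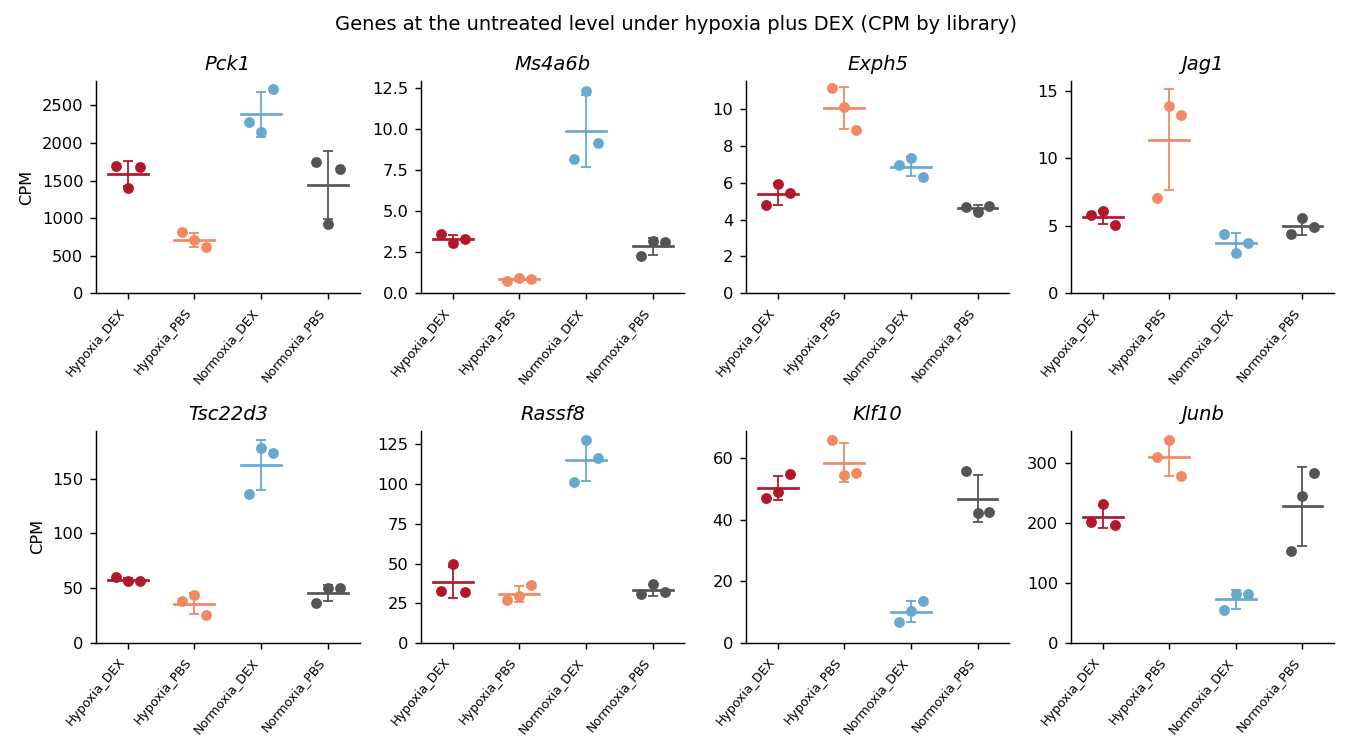
CPM (y axis) in each of 4 groups (x axis) for 8 genes at the untreated level in Hypoxia_DEX, with points for libraries 1 to 3, a line for the mean and bars for SD (n = 3). Pck1 and Ms4a6b are low in Hypoxia_PBS and Exph5 and Jag1 high there, Tsc22d3 and Rassf8 are high in Normoxia_DEX and Klf10 and Junb low there, and in each panel Hypoxia_DEX lies near Normoxia_PBS.

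The converse was a DEX response of normoxic liver with the combined state at the untreated level. DEX raised 400 genes at least 2-fold in normoxia (3.23%), 158 of them were called lower in Hypoxia_DEX than in Normoxia_DEX, and 42 were at the untreated level by the same definition. DEX lowered 309 genes (2.49%), 100 were called higher in Hypoxia_DEX than in Normoxia_DEX, and 37 were at the untreated level. Over all genes 22% were called lower and 23.2% higher in Hypoxia_DEX than in Normoxia_DEX. With the interval held within 1.5-fold the counts were 15 and 8. Leaving out single libraries gave 36 to 52 and 27 to 41, and 17 and 11 genes stayed in all 18 refits. These comparisons share the Normoxia_DEX and Normoxia_PBS libraries. The interaction is formed from the group means that chose these genes, so the group separation and the interaction calls given for them below are descriptions.

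Tsc22d3 (GILZ), a direct target of the glucocorticoid receptor that restrains inflammatory signalling, was in this group (chromosome X, 140539528 to 140600659). It had 60.1, 56.3 and 56.3 CPM in Hypoxia_DEX, 38.5, 43.98 and 25.1 CPM in Hypoxia_PBS, 136, 178 and 174 CPM in Normoxia_DEX and 36.8, 50.2 and 50.1 CPM in Normoxia_PBS. The Hypoxia_DEX libraries were all above the untreated ones but the difference was not called, with an interval of -0.083 to 0.75 on the log2 scale. With only the 6 compared libraries the rise of 0.33 was called (adjusted p = 0.0443). DEX still raised it within hypoxia (0.68, adjusted p = 0.0354), against 1.83 (adjusted p = 5.95e-05) in normoxia, and the difference of -1.15 (adjusted p = 0.0683) was not called.

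Fam89a, a gene of little known function, had 2.99, 5.6 and 3.45 CPM in Hypoxia_DEX, 13.98, 21.5 and 21.7 CPM in Normoxia_DEX and 3.15, 3.29 and 2.84 CPM in Normoxia_PBS, with 1.99, 3.25 and 4.4 CPM in Hypoxia_PBS. Pygo1, a co-activator of Wnt signalling, had 1.26, 2.01 and 1.8 CPM in Hypoxia_DEX, 7.44, 7.06 and 8.39 CPM in Normoxia_DEX and 1.69, 1.08 and 1.32 CPM in Normoxia_PBS. For both the Normoxia_DEX libraries were set apart and the interaction was called (-2.32, adjusted p = 0.0197 and -1.71, adjusted p = 0.0401). Rassf8, Ahr (the aryl hydrocarbon receptor), Ppard (a fatty acid-sensing nuclear receptor) and Trib3 (a stress pseudokinase), members chosen for description after their values were seen, averaged 38.1, 91.03, 11.4 and 3.44 CPM in Hypoxia_DEX. Their means were 115, 191, 33.4 and 7.998 CPM in Normoxia_DEX and 33.1, 76.8, 10.8 and 3.53 CPM in Normoxia_PBS.

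Several genes that DEX lowered in normoxia and that were at the untreated level in the combined state are fast-responding regulators. Klf10, a TGF-beta-inducible repressor (chromosome 15, 38291463 to 38300706), had 47.1, 49.1 and 54.6 CPM in Hypoxia_DEX, 65.8, 54.6 and 55.03 CPM in Hypoxia_PBS, 6.65, 10.2 and 13.6 CPM in Normoxia_DEX and 55.7, 42.1 and 42.5 CPM in Normoxia_PBS. Socs3, the feedback inhibitor of cytokine signalling, had 172, 125 and 170.3 CPM in Hypoxia_DEX, 276, 195 and 169.9 CPM in Hypoxia_PBS, 28.98, 28.2 and 31.3 CPM in Normoxia_DEX and 85.4, 139.6 and 134 CPM in Normoxia_PBS. In both genes Normoxia_DEX stood far below the 3 other groups and the interaction was called, at 1.99 (adjusted p = 0.00778) and 1.56 (adjusted p = 0.0395).

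Junb, Egr1, Btg2 and Bhlhe40, early-response or clock regulators chosen after their values were seen, shared the pattern. Their Hypoxia_DEX means were 211, 77.1, 132 and 173 CPM, their Normoxia_DEX means 73.01, 29.3, 41.2 and 67.1 CPM, and their Normoxia_PBS means 228, 69.7, 139 and 166 CPM. The interaction was called for Egr1 (1.56, adjusted p = 0.00726) and Bhlhe40 (1.28, adjusted p = 0.0128) and not for Junb (1.09, adjusted p = 0.123) or Btg2 (1.51, adjusted p = 0.183). Socs3 and Btg2 left the set in 3 of 18 refits each, among them those without Hypoxia_DEX-2 and without Normoxia_PBS-2, and Klf10, Junb, Egr1 and Bhlhe40 in none. With Hypoxia_DEX-2 and Hypoxia_PBS-1 both left out, Socs3 was called higher than untreated (0.51, edgeR adjusted p = 0.0355).

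Gene lists were then read as counts of members called in Hypoxia_DEX against Normoxia_PBS, beside 26.1% higher and 25.7% lower over all genes. Where a few members of a list called in 1 direction are named without values, they were chosen after their values were seen. Of 38 measured glucocorticoid receptor targets, 22 were higher and 1 (Stom) lower, with a median log2 fold change of 0.80. The lower count was 3 without Hypoxia_PBS-1 and 2 without Hypoxia_DEX-2, Hypoxia_PBS-2 or Normoxia_PBS-3. DEX alone in normoxia gave 21 higher and 2 lower with a median of 0.83, and DEX added to hypoxia gave 18 higher and 2 lower. Hypoxia alone gave 12 higher and 4 lower. Against Normoxia_DEX the combined state had 5 higher and 8 lower members and a median of -0.10.

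Ddit4, an inhibitor of the growth kinase mTORC1, had 114, 80.2 and 106 CPM in Hypoxia_DEX, 10.5, 19.6 and 10.5 CPM in Hypoxia_PBS, 135, 167 and 194 CPM in Normoxia_DEX and 4.14, 3.81 and 4.69 CPM in Normoxia_PBS (log2 fold change 4.58 with SE 0.27 and adjusted p = 9.57e-07). Fkbp5, the receptor's inhibitory co-chaperone, had 539.6, 547 and 512 CPM in Hypoxia_DEX and 111, 59.5 and 127 CPM in Normoxia_PBS (log2 fold change 2.43 with SE 0.25 and adjusted p = 3.54e-05), and its Normoxia_DEX mean of 538 CPM was close to the Hypoxia_DEX mean of 533 CPM. Lpin1, a phosphatidate phosphatase, averaged 1483 ± 129 CPM in Hypoxia_DEX and 234 ± 11.99 CPM in Normoxia_PBS, and Cdkn1a, the cell cycle inhibitor p21, 326 ± 14.6 CPM in Hypoxia_DEX and 24.8 ± 7.16 CPM in Normoxia_PBS (SD, n = 3 each). Tat, tyrosine aminotransferase, had 5204, 4970.4 and 5129 CPM in Hypoxia_DEX and 1128, 1238 and 2359.7 CPM in Normoxia_PBS (log2 fold change 1.70, adjusted p = 0.00045). Per1, a period clock gene with hormone-response elements, rose to 43.7 ± 2.78 CPM in Hypoxia_DEX, against 25.9 ± 5.99 CPM in Normoxia_PBS, and the metallothionein Mt2 was not called (0.40, adjusted p = 0.136).

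The receptor gene itself was not called. Nr3c1 had 73.3, 70.5 and 70.3 CPM in Hypoxia_DEX and 74.9, 80.8 and 71.9 CPM in Normoxia_PBS, and its log2 fold change of -0.089 (adjusted p = 0.287) had an interval of -0.24 to 0.057. Of 17 measured receptor and chaperone genes, 1 was higher and 5 lower. Fkbp4, a co-chaperone that carries the receptor to the nucleus, averaged 60.03 ± 1.47 CPM in Hypoxia_DEX and 99.1 ± 11.5 CPM in Normoxia_PBS (log2 fold change -0.72 with SE 0.10 and adjusted p = 9.46e-05), and Hsd11b1, which regenerates active hormone, 461 ± 14.5 CPM in Hypoxia_DEX and 585 ± 44.8 CPM in Normoxia_PBS (-0.34, adjusted p = 0.0122). The kinase chaperone Cdc37 and the Hsp70-Hsp90 adaptor Stip1 changed by -0.31 (adjusted p = 0.0026) and -0.46 (adjusted p = 0.0242). The lower count was 3 without Hypoxia_DEX-1, Hypoxia_DEX-3 or Normoxia_PBS-2, where Stip1 had adjusted p values of 0.0931, 0.0779 and 0.0782, and Stip1 was also uncalled without Normoxia_PBS-3 (0.0548) and with the near-identical pair summed (0.0801), which also gave 3 lower. The higher member, the chaperone Hspa8, was uncalled without Hypoxia_DEX-2 and without each of the 3 Normoxia_PBS libraries.

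Of 26 measured HIF targets, 10 were higher and 3 (Vegfa, Kdm3a and Ndrg1) lower (median 0.24), and hypoxia alone gave 10 higher and 2 lower. Pdk1, which like Pdk4 inhibits pyruvate dehydrogenase, averaged 222 ± 4.85 CPM in Hypoxia_DEX, 208 ± 1.86 in Hypoxia_PBS, 98.4 ± 10.8 in Normoxia_DEX and 99.7 ± 3.24 in Normoxia_PBS (log2 fold change with hypoxia alone 1.06, adjusted p = 1.54e-06, with DEX alone -0.019, adjusted p = 0.906). Tfrc, the transferrin receptor, had 69.8, 78.1 and 72.4 CPM in Hypoxia_DEX and 26.2, 33.3 and 40.1 CPM in Normoxia_PBS and was raised to a like mean by either treatment alone (69.4 and 74.3 CPM). Vegfa, the angiogenic growth factor, was lower in Hypoxia_DEX, at 154 ± 15.6 CPM in Hypoxia_DEX and 218 ± 40.1 CPM in Normoxia_PBS (log2 fold change -0.499 with SE 0.13 and adjusted p = 0.00545), while hypoxia alone left it uncalled (0.069, adjusted p = 0.696). Egln3, an oxygen sensor induced by HIF, was raised by hypoxia (0.93, adjusted p = 0.00788) and lowered again by DEX (-1.47, adjusted p = 0.00179), and ended at 11.2 ± 2.73 CPM in Hypoxia_DEX and 16.1 ± 3.71 CPM in Normoxia_PBS (uncalled, -0.54, adjusted p = 0.0755).

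Egln3 was called lower than untreated without Hypoxia_DEX-2 (adjusted p = 0.0273), Hypoxia_PBS-1 (0.0217) or Normoxia_PBS-1 (0.0247), with Hypoxia_DEX-2 and Hypoxia_PBS-1 both left out (0.00214) and with the replicate block (0.021). The lower count of the list was 5 without Hypoxia_PBS-1 and 6 without Hypoxia_DEX-2 and Hypoxia_PBS-1 together. Adm, a vasodilator peptide, was called higher (1.15, adjusted p = 0.0468), but not without Hypoxia_DEX-1, Hypoxia_DEX-2, Hypoxia_PBS-3, any Normoxia_DEX library, Normoxia_PBS-1 or Normoxia_PBS-2, where adjusted p ran from 0.0586 to 0.163. It was also uncalled with the near-identical pair summed (0.0505), with only the 6 compared libraries (0.0778), with no CPM limit (0.137) and with Hypoxia_DEX-2 and Hypoxia_PBS-1 both left out (0.126). Car9 was below the count limit.

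Genes of glucose production and of glucose use were counted side by side. Of 17 measured gluconeogenesis genes 12 were higher and none lower by edgeR, also by DESeq2 and at an unadjusted p under 0.05 (median 0.78), and of 20 glycolysis genes 12 were higher and 2 lower (median 0.55). Pcx, pyruvate carboxylase, had 1479.8, 1509 and 1498 CPM in Hypoxia_DEX and 449, 414 and 462 CPM in Normoxia_PBS (log2 fold change 1.76 with SE 0.07 and adjusted p = 1.15e-08), with 1333 CPM in Hypoxia_PBS and 631 CPM in Normoxia_DEX. Slc37a4, the glucose 6-phosphate transporter, averaged 466 ± 43.8 CPM in Hypoxia_DEX and 118 ± 13.8 CPM in Normoxia_PBS, Gpd1, the cytosolic glycerol 3-phosphate dehydrogenase, 1029 ± 70.8 CPM in Hypoxia_DEX and 259 ± 45.9 CPM in Normoxia_PBS, and Gpt2, a mitochondrial alanine aminotransferase, 869 ± 52.4 CPM in Hypoxia_DEX and 343 ± 53.3 CPM in Normoxia_PBS (SD, n = 3 each).

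G6pc, the phosphatase that frees glucose, was scattered, with 192, 52.7 and 198 CPM in Hypoxia_DEX and 72.4, 25.5 and 23.4 CPM in Normoxia_PBS. The groups overlapped and the difference was not called (1.87, adjusted p = 0.0583). It was called without Hypoxia_DEX-2 (2.27, adjusted p = 0.0261), without Normoxia_PBS-1 (2.57, 0.0303), with the replicate block (1.81, 0.0252), by DESeq2 (1.87, 0.0192) and without Hypoxia_DEX-2 and Hypoxia_PBS-1 together (2.27, 0.0181).

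The isomerase Gpi1, the enolase Eno1 and the pyruvate kinase Pklr rose by 1.70, 1.69 and 1.55 on the log2 scale, with adjusted p of 1.8e-07, 1.91e-07 and 1.16e-06. None of the 3 was called against Hypoxia_PBS by edgeR. The glycolysis list had 0 higher and 1 lower member in that comparison, or 3 and 1 at an unadjusted p under 0.05. The count of 2 lower members was 1 without Hypoxia_DEX-1, Hypoxia_DEX-3 or Normoxia_PBS-2 and with the near-identical pair summed, and 4 without Hypoxia_DEX-2 and Hypoxia_PBS-1 together.

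Amino acid genes split. Of 25 measured genes of amino acid breakdown and the urea cycle, 10 were higher and 8 lower. Asl, argininosuccinate lyase, had 1955, 1665 and 1913 CPM in Hypoxia_DEX and 376, 420.1 and 624 CPM in Normoxia_PBS (log2 fold change 1.96 with SE 0.16 and adjusted p = 1.82e-06), and the liver glutaminase Gls2 averaged 166 ± 7.49 CPM in Hypoxia_DEX and 422 ± 84.2 CPM in Normoxia_PBS (log2 fold change -1.34 with SE 0.15 and adjusted p = 1.79e-05). Gls2 was at 133 CPM in Hypoxia_PBS and 386 CPM in Normoxia_DEX.

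Most genes of fat oxidation and of fat storage were higher. Of 31 measured genes of fatty acid oxidation and ketogenesis 25 were higher and 1 lower (median 0.80), and of 16 lipid-droplet genes 10 were higher and 0 lower by edgeR (median 0.77), with 0 lower also by DESeq2 and at an unadjusted p under 0.05. The lowest log2 fold change among the lipid-droplet genes was -1.85 and was not called. The 1 lower oxidation gene, the peroxisomal thiolase Acaa1b, was uncalled without Hypoxia_DEX-1, Hypoxia_DEX-3 or Normoxia_PBS-3, with the first 2 summed and with no CPM limit. By edgeR, hypoxia alone gave 18 higher and 1 lower oxidation genes, and 11 higher and 0 lower droplet genes. DEX alone gave 2 higher and 1 lower oxidation genes, and 4 higher and 3 lower droplet genes. Against Hypoxia_PBS the combined state had 4 oxidation and 2 droplet genes higher and 0 of each lower by edgeR. Cyp4a14, a PPAR alpha-driven omega-hydroxylase, had 5847, 5803 and 5929.6 CPM in Hypoxia_DEX and 847, 474 and 541 CPM in Normoxia_PBS (log2 fold change 3.24 with SE 0.28 and adjusted p = 1.45e-05), and its relative Cyp4a10 averaged 4439 ± 599 CPM in Hypoxia_DEX and 507 ± 196 CPM in Normoxia_PBS. Cpt1a, the carnitine gate of mitochondria, averaged 754 ± 14.2 CPM in Hypoxia_DEX and 432 ± 123 CPM in Normoxia_PBS (log2 fold change 0.80, adjusted p = 0.00568).

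The droplet coats Plin4 and Plin5 averaged 98.2 ± 7.13 and 244 ± 2.68 CPM in Hypoxia_DEX, against 7.01 ± 1.43 and 42.8 ± 4.88 CPM in Normoxia_PBS (SD, n = 3 each). Each treatment alone raised both (for Plin4 by 3.31 with hypoxia and 3.08 with DEX, for Plin5 by 1.42 and 2.49 on the log2 scale). Mgll, monoglyceride lipase, rose by 1.98 (adjusted p = 6.95e-06). Hypoxia_PBS-1 was the highest of its group for Plin4, Plin5 and Cidec, with 116, 34.2 and 57.9 CPM for Plin4.

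Lipid synthesis and lipoprotein genes went both ways. Of 22 measured lipogenesis genes 9 were higher and 7 lower, and of 23 apolipoprotein and lipoprotein genes 9 were higher and 6 lower. Thrsp, a lipogenic nuclear protein, had 971, 924 and 976 CPM in Hypoxia_DEX and 63.2, 114 and 151 CPM in Normoxia_PBS (log2 fold change 3.13 with SE 0.24 and adjusted p = 4.83e-06), whereas Srebf1, the master regulator of lipogenesis, had 43.8, 43.03 and 40.2 CPM in Hypoxia_DEX and 103, 151 and 167 CPM in Normoxia_PBS (log2 fold change -1.73 with SE 0.24 and adjusted p = 0.000262). For Apoa4, carried on triglyceride-rich particles, the libraries held 2074, 1514 and 2112 CPM in Hypoxia_DEX, 3074, 1904 and 1874 CPM in Hypoxia_PBS and 129, 82.4 and 112 CPM in Normoxia_PBS (log2 fold change 4.14 with SE 0.23 and adjusted p = 8.55e-07), so every hypoxic library was above every Normoxia_PBS one. Lpl, lipoprotein lipase, fell to 7.001 ± 1.19 CPM in Hypoxia_DEX, against 27.8 ± 4.32 CPM in Normoxia_PBS. Its inhibitor Angptl4 rose to 222 ± 11.5 CPM in Hypoxia_DEX, against 71.6 ± 36.7 CPM in Normoxia_PBS (1.63, adjusted p = 0.00136). Fgf21, a fasting hormone, was below the count limit.

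For cholesterol synthesis genes the share called lower was near that of all genes. Of 24 measured, 6 were lower and none higher by edgeR, with a median of -1.18, against -0.013 over all genes. The list summed to 2155 to 3660 CPM in Hypoxia_DEX and 3955 to 4867 CPM in Normoxia_PBS, without overlap. At an unadjusted p under 0.05 the counts were 8 lower and 0 higher, and DESeq2 gave 8 and 0. Sc5d, a late desaturase of the pathway, had 104, 138 and 107 CPM in Hypoxia_DEX and 538, 586 and 681 CPM in Normoxia_PBS (log2 fold change -2.37 with SE 0.29 and adjusted p = 0.000129). Pmvk, phosphomevalonate kinase, averaged 19.8 ± 7.95 CPM in Hypoxia_DEX and 62.8 ± 5.84 CPM in Normoxia_PBS and Stard4, a sterol carrier, 58.8 ± 25.9 CPM in Hypoxia_DEX and 134 ± 7.51 CPM in Normoxia_PBS, with log2 fold changes of -1.69 (adjusted p = 0.0305) and -1.20 (adjusted p = 0.0442). The lower count was 3 without Hypoxia_DEX-1, Hypoxia_DEX-3 or Normoxia_PBS-2 and 11 without Hypoxia_PBS-2, which also gave 1 higher, and 16 without Hypoxia_DEX-2 and Hypoxia_PBS-1 together. Insig1, a sterol sensor partner, had 40.04, 99.1 and 45.9 CPM in Hypoxia_DEX and 229, 264 and 252 CPM in Normoxia_PBS, with Hypoxia_DEX-2 nearest to untreated. It was uncalled without Hypoxia_DEX-1, Hypoxia_DEX-3 or Normoxia_PBS-2 (adjusted p 0.0553 to 0.0814), Pmvk without those or either other Normoxia_PBS library (0.0547 to 0.0995), and Stard4 without any library but Hypoxia_DEX-2, Hypoxia_PBS-1 and Hypoxia_PBS-2 (0.0521 to 0.131). With the near-identical pair summed the lower count was 3, and Insig1 (0.0788), Pmvk (0.0886) and Stard4 (0.126) were uncalled. With only the 6 compared libraries 11 were lower, and with no CPM limit Pmvk (0.0614) and Stard4 (0.0898) were uncalled.

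Bile acid and drug metabolism genes were divided. Of 21 bile acid genes 8 were higher and 7 lower, and of 32 drug metabolism genes 13 were higher and 11 lower. Abcb11, the bile salt export pump, had 211, 280.2 and 213 CPM in Hypoxia_DEX and 906, 1003 and 939.9 CPM in Normoxia_PBS (log2 fold change -2.02 with SE 0.17 and adjusted p = 2.66e-06), Nr0b2, the repressor SHP, averaged 1.77 ± 0.853 CPM in Hypoxia_DEX and 14.3 ± 5.47 CPM in Normoxia_PBS (-2.96, adjusted p = 0.00942), and the uptake carrier Slco1a1 31.6 ± 7.43 CPM in Hypoxia_DEX and 140.2 ± 47.05 CPM in Normoxia_PBS. Cyp7a1, the rate-limiting enzyme of bile acid synthesis, was not called (0.87, adjusted p = 0.149), with 174, 131 and 172 CPM in Hypoxia_DEX and 53.4, 97.6 and 111 CPM in Normoxia_PBS. Cyp2b10, a CAR-inducible oxidase, averaged 209 ± 49.9 CPM in Hypoxia_DEX, 31.3 ± 11.6 in Hypoxia_PBS, 353 ± 82.9 in Normoxia_DEX and 37.6 ± 11.9 in Normoxia_PBS. Cyp2d9, which can share reads with its relatives, averaged 163 ± 43.2 CPM in Hypoxia_DEX, 184 ± 18.2 in Hypoxia_PBS, 37.8 ± 5.09 in Normoxia_DEX and 25.9 ± 0.0501 in Normoxia_PBS. Fmo5, a flavin monooxygenase, averaged 2132 ± 45.8 CPM in Hypoxia_DEX and 494 ± 96.03 CPM in Normoxia_PBS (log2 fold change 2.11).

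Inflammatory cytokine genes were called lower in part, 8 in the combined state and 12 under DEX alone. Of 24 measured, 8 were lower and none higher by edgeR (median -1.10), and at an unadjusted p under 0.05 11 and 0, while DESeq2 gave 10 and 0. Without Hypoxia_PBS-1 1 member was higher. DEX alone in normoxia gave 12 lower and a median of -2.44, and against Normoxia_DEX the combined state had 3 higher members and a median of 1.22. The difference between these responses over the list was not tested. Il1b, interleukin 1 beta, had 4.25, 8.66 and 3.77 CPM in Hypoxia_DEX, 26.4, 53.96 and 24.9 CPM in Hypoxia_PBS, 2.1, 2.95 and 2.04 CPM in Normoxia_DEX and 24.9, 49.5 and 43.7 CPM in Normoxia_PBS (log2 fold change -2.88 with SE 0.43 and adjusted p = 0.000516). Ccl2, a monocyte chemokine, had 1.38, 8.75 and 1.01 CPM in Hypoxia_DEX, 0.682, 0.451 and 0.432 CPM in Normoxia_DEX and 14.996, 45.6 and 55.3 CPM in Normoxia_PBS (log2 fold change -3.55 with SE 0.85 and adjusted p = 0.0072), and Tnf averaged 1.22 ± 0.992 CPM in Hypoxia_DEX and 6.21 ± 2.82 CPM in Normoxia_PBS (-2.48, adjusted p = 0.00219).

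In Il1b, Ccl2 and Tnf Hypoxia_DEX-2 was the highest library of its group. Without it 15 of the 24 were lower, and without Hypoxia_DEX-3 5 were. The list's summed level ran from 501 to 1539 CPM in Hypoxia_DEX and from 674 to 2306 CPM in Normoxia_PBS. Ccl7, a related chemokine, changed by -2.66 (adjusted p = 0.0031).

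Most interferon-stimulated genes were lower. Of 30 measured, 25 were lower and 1 (Usp18) higher, with a median of -1.22, and hypoxia alone gave 24 lower, whereas DEX alone gave 6 lower and 1 higher. Ifi27l2a, an interferon-alpha-inducible membrane protein, had 0.299, 0.7 and 0.265 CPM in Hypoxia_DEX and 4.84, 5.25 and 6.8 CPM in Normoxia_PBS (log2 fold change -3.83 with SE 0.48 and adjusted p = 8.64e-06). Isg15, a ubiquitin-like modifier, averaged 2.11 ± 0.383 CPM in Hypoxia_DEX, 4.51 ± 2.21 in Hypoxia_PBS, 7.46 ± 1.37 in Normoxia_DEX and 12.5 ± 1.06 in Normoxia_PBS. Cmpk2, a mitochondrial nucleotide kinase, and Ifi44 changed by -2.25 (adjusted p = 8.6e-07) and -2.19 (adjusted p = 4.95e-05). The summed level of the list was 350.0 to 455 CPM in Hypoxia_DEX and 635 to 743 CPM in Normoxia_PBS, without overlap.

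Most Kupffer cell markers were lower beside these immune genes. Of 15 Kupffer cell markers 13 were lower and 1 (Slc40a1, the iron exporter) higher, or 0 higher with the near-identical pair summed, with no CPM limit and with only the 6 compared libraries. The list summed to 434 to 481 CPM in Hypoxia_DEX and 665 to 912 CPM in Normoxia_PBS. Clec4f, a lectin specific to Kupffer cells, had 23.9, 21.7 and 23.5 CPM in Hypoxia_DEX, 19.8, 30.3 and 27.2 CPM in Hypoxia_PBS, 118, 154 and 105 CPM in Normoxia_DEX and 131, 115 and 96.4 CPM in Normoxia_PBS (log2 fold change -2.31 with SE 0.18 and adjusted p = 2.6e-06). Folr2, Adgre1 and Vsig4 changed by -2.39, -2.23 and -1.53 with adjusted p of 5.25e-07, 2.91e-06 and 2.48e-06, and Cd163, a scavenger receptor raised by DEX in normoxia, was at 30.5 ± 1.87 CPM in Hypoxia_DEX and 28.5 ± 6.76 CPM in Normoxia_PBS and uncalled. The part of these markers in the immune gene results was not tested. In bulk tissue fewer cells of a type and less RNA per cell cannot be told apart. Slc40a1 was uncalled without Hypoxia_DEX-1, Hypoxia_DEX-3, Normoxia_PBS-2 or Normoxia_PBS-3.

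Of 14 stellate cell and fibroblast markers 9 were lower and 3 (Dcn, Pdgfra and Rgs5) higher, and of 15 endothelial markers 7 were lower and 2 (Lyve1 and Vwf) higher. The collagen chains Col3a1 and Col1a1 averaged 5.56 ± 0.352 and 1.13 ± 0.569 CPM in Hypoxia_DEX and 30.996 ± 2.71 and 5.38 ± 0.787 CPM in Normoxia_PBS (SD, n = 3 each), and the proteoglycan Lum 2.45 ± 0.501 CPM in Hypoxia_DEX and 9.56 ± 2.22 CPM in Normoxia_PBS. Lyve1, a hyaluronan receptor of sinusoids, went the other way, with 55.4, 51.7 and 51.4 CPM in Hypoxia_DEX, 20.8, 24.01 and 26.8 CPM in Hypoxia_PBS, 52.2, 65.2 and 49.9 CPM in Normoxia_DEX and 11.2, 9.88 and 11.1 CPM in Normoxia_PBS (log2 fold change 2.30 with SE 0.12 and adjusted p = 4.34e-08). Kdr, the main VEGF receptor, fell to 32.3 ± 1.18 CPM in Hypoxia_DEX, against 79.3 ± 5.77 CPM in Normoxia_PBS. The stellate list summed to 526 to 559 CPM in Hypoxia_DEX and 477 to 621 CPM in Normoxia_PBS, and the endothelial list to 669 to 690.1 CPM in Hypoxia_DEX and 779.8 to 811 CPM in Normoxia_PBS.

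None of the 15 lymphocyte markers passed the count limit, and they summed to 4.72 to 7.72 CPM in Hypoxia_DEX and 10.2 to 13.8 CPM in Normoxia_PBS. Neutrophil markers summed to 21.8 to 49.7 CPM in Hypoxia_DEX and 32.8 to 53.3 CPM in Normoxia_PBS, with Csf3r and Cxcr2, 2 of 6 measured, lower (1 without Hypoxia_DEX-1). Cholangiocyte markers summed to 29.8 to 44.2 CPM in Hypoxia_DEX and 53.8 to 77.8 CPM in Normoxia_PBS, with 2 of 5 measured lower (1 without Hypoxia_DEX-2 or Hypoxia_DEX-3). Erythroid markers, whose globin genes share reads, summed to 77.9 to 115.8 CPM in Hypoxia_DEX and 56.4 to 94.3 CPM in Normoxia_PBS, with Hba-a1 and Klf1, 2 of 6 measured, higher (4 without Hypoxia_DEX-2 or Normoxia_PBS-2) and Alas2 lower, which was uncalled without Hypoxia_DEX-1, Hypoxia_DEX-2, Normoxia_PBS-2 or Normoxia_PBS-3.

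**Figure D5:**
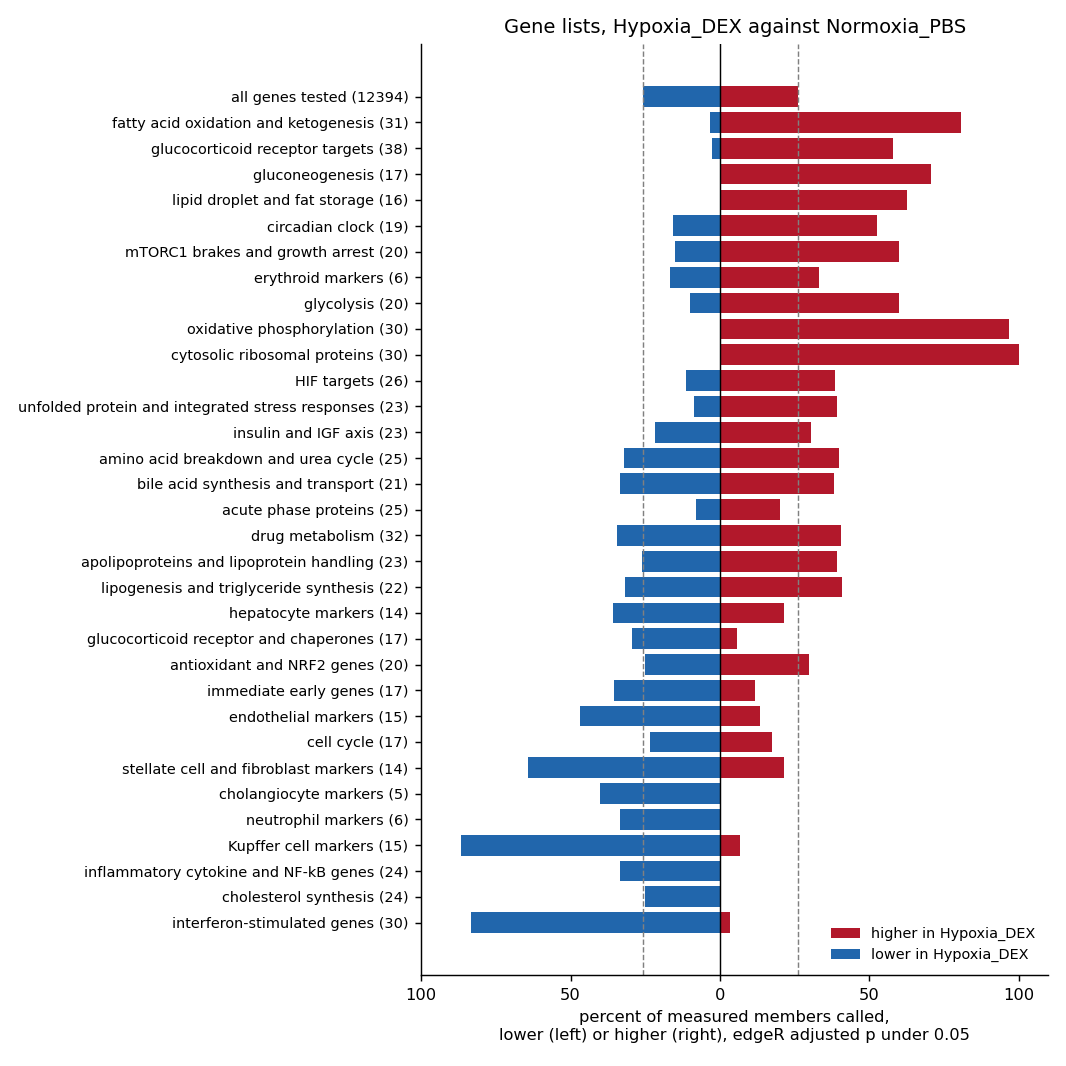
For 32 gene lists with at least 5 measured members (number in brackets) and for all tested genes, bars show the percent of members called higher (right) or lower (left) in Hypoxia_DEX against Normoxia_PBS, ordered by median log2 fold change, with dashed lines at the all-gene shares of 26.1% and 25.7%. Ribosomal protein and oxidative phosphorylation lists reach furthest to the right, and Kupffer cell and interferon-stimulated lists furthest to the left.

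Genes of housekeeping complexes moved in 1 direction by small amounts. All 30 measured cytosolic ribosomal protein genes were higher (median 0.47, range 0.14 to 0.79), as were 29 of 30 oxidative phosphorylation genes (median 0.54). Hypoxia alone gave 26 and 25 higher. DEX alone gave 0 of each by edgeR, and at an unadjusted p under 0.05 0 ribosomal and 2 oxidative phosphorylation genes were higher. Rpl3, of the large ribosomal subunit, had 252, 249 and 233 CPM in Hypoxia_DEX and 144, 146 and 134 CPM in Normoxia_PBS (log2 fold change 0.79 with SE 0.07 and adjusted p = 1.53e-06), and Atp5a1, the alpha subunit of ATP synthase, 1407, 1388 and 1406 CPM in Hypoxia_DEX and 752, 797 and 853 CPM in Normoxia_PBS (log2 fold change 0.81 with SE 0.07 and adjusted p = 1.98e-06). These are relative values on TMM-scaled library sizes and say nothing of RNA per cell. The TMM factors were 0.919 to 0.945 in Hypoxia_DEX and 1.04 to 1.12 in Normoxia_PBS. The scaling thus adds to each log2 fold change, and rises as small as these depend on it in part.

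Growth and stress genes changed in several directions. Of 20 mTORC1 brakes and growth-arrest genes 12 were higher and 3 (Sesn3, Deptor and Tsc1) lower (median 0.74), with Ddit4 and Cdkn1a among the higher. Ccnd1, cyclin D1, had 8.98, 15.7 and 8.71 CPM in Hypoxia_DEX, 7.8, 8.68 and 10.1 CPM in Hypoxia_PBS, 294, 255 and 205 CPM in Normoxia_DEX and 122, 108 and 85.9 CPM in Normoxia_PBS (log2 fold change -3.27 with SE 0.23 and adjusted p = 2.52e-06), so both hypoxic groups were low, while DEX raised it in normoxia. Ccng2, an atypical cyclin of arrested cells, averaged 56.3 ± 5.22 CPM in Hypoxia_DEX and 14.1 ± 2.04 CPM in Normoxia_PBS, and Gadd45b and Gadd45g, stress sensors, rose by 2.07 (adjusted p = 0.00624) and 1.47 (adjusted p = 1.34e-06). Of 17 cell cycle genes 3 were higher and 4 lower, with 7 lower without Hypoxia_PBS-1 and 8 without Normoxia_PBS-1.

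Of 23 genes of the unfolded protein and integrated stress responses 9 were higher and 2 lower, with 5 higher without Hypoxia_DEX-3 or Normoxia_PBS-3 and 1 lower without Hypoxia_DEX-1, Hypoxia_DEX-3 or Normoxia_PBS-3. Ddit3 (CHOP) averaged 5.58 ± 0.847 CPM in Hypoxia_DEX, 2.21 ± 0.545 in Normoxia_DEX and 9.17 ± 1.2 in Normoxia_PBS (-0.73, adjusted p = 0.0142 against untreated) and was uncalled without the same 3 libraries (0.0515 to 0.0585). Osgin1, an oxidative stress-induced growth inhibitor, had 152, 148 and 163 CPM in Hypoxia_DEX, 228, 169 and 294 CPM in Hypoxia_PBS, 49.9, 27.5 and 49.8 CPM in Normoxia_DEX and 387, 405 and 240.2 CPM in Normoxia_PBS (log2 fold change -1.16 with SE 0.28 and adjusted p = 0.00633). Of the 20 antioxidant genes 6 were higher and 5 lower.

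Of 17 immediate early genes 2 were higher and 6 lower, while hypoxia alone gave 1 higher and 1 lower and DEX alone 3 higher and 9 lower. The lower count was 3 without Hypoxia_DEX-1, without Hypoxia_DEX-3, with these libraries summed and with no CPM limit, and the higher count was 1 without Normoxia_PBS-2. Myc, the growth-promoting factor, had 37.4, 38.9 and 38.97 CPM in Hypoxia_DEX and 5.89, 4.89 and 5.87 CPM in Normoxia_PBS (log2 fold change 2.79 with SE 0.34 and adjusted p = 0.000108), and Nr4a1, an orphan nuclear receptor, averaged 1.59 ± 0.526 CPM in Hypoxia_DEX and 7.06 ± 1.82 CPM in Normoxia_PBS (-2.19, adjusted p = 0.000163). Fos changed by -1.49 (adjusted p = 0.0151) and was uncalled without Hypoxia_DEX-1 (0.0585) or Hypoxia_DEX-3 (0.0669), with the pair summed (0.0505) and with no CPM limit (0.0544). Of 19 clock genes 10 were higher and 3 lower in the combined state, 10 and 1 under hypoxia alone and 6 and 6 under DEX alone. The lower ones in the combined state were the activators Arntl and Npas2 and the repressor Nr1d1. Ciart, a clock repressor, had 17.7, 16.7 and 17.7 CPM in Hypoxia_DEX, 3.64, 1.59 and 1.33 CPM in Hypoxia_PBS, 12.8, 19.9 and 17.5 CPM in Normoxia_DEX and 0.292, 0.154 and 0.792 CPM in Normoxia_PBS (log2 fold change 5.45 with SE 0.57 and adjusted p = 2.8e-06).

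Nr1d1 (REV-ERB alpha), another repressor, had 9.76, 8.22 and 8.33 CPM in Hypoxia_DEX, 29.3, 16.997 and 20.3 CPM in Hypoxia_PBS, 11.4, 16.8 and 15.1 CPM in Normoxia_DEX and 79.4, 71.3 and 85.3 CPM in Normoxia_PBS (log2 fold change -3.16 with SE 0.20 and adjusted p = 6.83e-07), lowest where the treatments met. Per3, a period gene, was high in both hypoxic groups and lowered by DEX in normoxia, with 23.6 ± 5.38 CPM in Hypoxia_DEX, 28.2 ± 3.25 in Hypoxia_PBS, 1.8 ± 0.396 in Normoxia_DEX and 5.02 ± 1.67 in Normoxia_PBS.

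Among secreted and signalling proteins, 5 of 25 acute phase genes were higher and 2 lower, and 7 of 23 genes of the insulin and IGF axis were higher and 5 lower. Lcn2, an iron-withholding acute phase protein, had 909, 1507 and 930.1 CPM in Hypoxia_DEX and 92.5, 163 and 302 CPM in Normoxia_PBS (log2 fold change 2.59 with SE 0.39 and adjusted p = 0.000722), and Orm3 and Serpina3m, members of families that can share reads, rose by 1.87 (adjusted p = 6.07e-05) and 1.498 (adjusted p = 1.47e-06) while Orm2 changed by -0.97 (adjusted p = 0.0108). Hamp, hepcidin, was not called (0.13, adjusted p = 0.587). The acute phase lower count was 4 without Hypoxia_DEX-2. Irs2, an insulin receptor substrate, had 288, 334 and 302 CPM in Hypoxia_DEX, 219, 231 and 201 CPM in Hypoxia_PBS, 56.5, 36.8 and 49.4 CPM in Normoxia_DEX and 63.8, 87.1 and 109 CPM in Normoxia_PBS (log2 fold change 1.83 with SE 0.18 and adjusted p = 1.78e-05). Igfbp1, a fasting-induced binding protein, and Igfbp3 rose by 1.96 (adjusted p = 0.00833) and 1.75 (adjusted p = 1.95e-07), and Pik3r1, the regulatory subunit of PI3-kinase, by 1.48 (adjusted p = 6.88e-07).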

How the data were processed

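RNA of 12 mouse livers was sequenced, 3 biological replicates in each of 4 groups, as the labels give them. The authors' deposited table held raw counts per gene as whole numbers, with no normalization. Per the submitters' processing notes, Trimmomatic, HISAT2 2.0.4, SAMtools, featureCounts and DESeq2 were named with build mm10. Their roles, the annotation and the strandedness of counting were not given in the sources used here, and antisense or near-identical genes may share reads. The library kit, per the labels' protocols, was a stranded Illumina mRNA kit. Titles decided the oxygen group where a protocol text calls both arms hypoxia.

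Genes with at least 1 CPM in 3 of the 6 compared libraries were kept, 12394 of 54838, holding 99.8% of counts. The 12 libraries of 12464687 to 24715995 counts entered 1 model of edgeR 4.0.16 under R 4.3.3 (TMM, quasi-likelihood test, 8 residual degrees of freedom), and p-values were adjusted by Benjamini-Hochberg over all genes, with 0.05 as the threshold. CPM values use TMM-scaled library sizes. SE and 95% intervals are from the fit and cover these samples only. Gene positions are GENCODE M21 on mm10, and promoters are RefSeq GRCm38.p6.

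Named genes were, with at least 5 CPM in 1 group, the 6 largest called rises and falls without overlap, the 5 largest steps in each direction among genes moved by both, the 5 largest hypoxia changes in each direction and 3 largest DEX changes in each direction among genes at the untreated level, and up to 4 called members per list. Added to these were 20 fixed genes, 19 of them measured. Clone, major urinary protein and immunoglobulin names were left out. The 34 lists (25 pathways, 9 cell types) had 704 distinct genes, 631 of them measured. The comparison, lists and rules were chosen with earlier results of these data known.

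On counts simulated for Hypoxia_DEX against Normoxia_PBS (12394 genes), 67 genes were changed 1.5-fold, 67 2-fold and 66 4-fold. Of these changes 49.3%, 85.1% and 98.5% were recovered, with 8 false calls of 163. In the data 6417 genes were called. With so few changed genes the adjusted p threshold is stricter in the simulation, so its recovery and false call shares need not hold for the data. Also run were DESeq2 1.42.0, RLE size factors, no CPM limit, the replicate block, the 6 libraries alone, the near-identical pair summed, 2 libraries left out, other fold limits, and each library left out in turn. Figures were drawn with Python 3.11.15 and matplotlib 3.10.9. The results of some genes are not reported here.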

Additional observations from a re-analysis of the deposited data

Results flagged for a closer look

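For 20 of the genes described here, 6 of them (Pdp2, Exph5, Rassf8, Ahr, Egr1 and Bhlhe40) chosen after their values were seen, the DEX response in hypoxia (Hypoxia_DEX over Hypoxia_PBS) differed from that in normoxia (Normoxia_DEX over Normoxia_PBS) by the interaction test across all genes, where 1.41% of genes were called. Fam89a, Pygo1, Rassf8, Ahr, Klf10, Socs3, Egr1, Bhlhe40, Exph5 and Pdp2 came from sets chosen on group means that also form the interaction. Their calls are descriptions and are not to be set against the share of all genes. Values are log2 fold changes with DEX, then their difference with its edgeR adjusted p. They are from the fit of all 12 libraries, and these calls were not rechecked gene by gene in the refits. Among the genes moved by both treatments, the 16 interaction calls became 6 to 53 when 1 library was left out.

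In 11 genes the difference was negative. The mTORC1 inhibitor Ddit4 had 2.9 in hypoxia and 5.3 in normoxia (difference -2.4, adjusted p = 0.0114), and Treh had 0.95 in hypoxia and 3.44 in normoxia (-2.49, 0.0427). Thrsp had 1.37 in hypoxia and 3.37 in normoxia (-2, 0.0199), and Fmo5 had 0.79 in hypoxia and 2.08 in normoxia (-1.29, 0.00322). Lyve1, a sinusoidal endothelial marker, had 1.15 in hypoxia and 2.38 in normoxia (-1.24, 0.00244). Pygo1 had 0.77 in hypoxia and 2.48 in normoxia (-1.71, 0.0401). Fam89a had 0.29 in hypoxia and 2.62 in normoxia (-2.32, 0.0197), and Gadd45g had 0.19 in hypoxia and 1.41 in normoxia (-1.22, 0.00322). Exph5 had -0.9 in hypoxia and 0.58 in normoxia (-1.48, 0.00173), Rassf8 had 0.29 in hypoxia and 1.8 in normoxia (-1.5, 0.0124), and Ahr had -0.04 in hypoxia and 1.32 in normoxia (-1.36, 0.00144).

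In the other 9 genes the difference was positive. Osgin1 had -0.58 in hypoxia and -3.02 in normoxia (2.45, adjusted p = 0.0199), Klf10 had -0.22 in hypoxia and -2.20 in normoxia (1.99, 0.00778), and Socs3 had -0.46 in hypoxia and -2.02 in normoxia (1.56, 0.0395). Ddit3 had -0.58 in hypoxia and -2.02 in normoxia (1.44, 0.0482), and the VEGF receptor Kdr had -0.50 in hypoxia and -1.12 in normoxia (0.63, 0.0409). Irs2 had 0.51 in hypoxia and -0.87 in normoxia (1.38, 0.0335), and Pdp2 had 1.8 in hypoxia and 0.33 in normoxia (1.46, 0.0039). Egr1 had 0.31 in hypoxia and -1.25 in normoxia (1.56, 0.00726), and Bhlhe40 had -0.04 in hypoxia and -1.31 in normoxia (1.28, 0.0128). Genes were not searched one by one for single libraries far from their group of 3, though some such libraries are named above.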

How the results depend on the processing

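Across the settings run, called genes of Hypoxia_DEX against Normoxia_PBS stayed within 1.5 times of the main counts, for example 3274 higher and 3122 lower with RLE size factors and 3158 and 2995 with DESeq2. Leaving out 1 library gave 2706 to 3376 higher, 2648 to 3393 lower, 738 to 812 and 894 to 999 with at least 2-fold, 81 to 203 moved up and 81 to 220 moved down by both, 5 to 20 and 4 to 16 raised or lowered by hypoxia and back, 36 to 52 and 27 to 41 raised or lowered by DEX and back, and 6 to 53 interaction calls. Interaction calls were 48 with DESeq2, 26 with no CPM limit, 7 with the Hypoxia_DEX-1 and Hypoxia_DEX-3 pair summed and 97 with Hypoxia_DEX-2 and Hypoxia_PBS-1 left out, against 16. The pair summed gave 88 genes moved down, and the 2 libraries left out gave 238 up, 256 down and 19 raised by hypoxia and back. With the untreated level held within 1.5-fold the 4 returned sets held 2, 1, 15 and 8 genes, and with each difference at least 1.5-fold 77 genes were moved up. The replicate block gave 3232 higher, 3172 lower, 150 moved up, 157 moved down and 18 interaction calls. Same-numbered Hypoxia_DEX and Normoxia_PBS libraries correlated at 0.241, 0.011 and -0.201 in their deviations, so the numbers were not taken as pairs. Directions turned for 2 uncalled genes, Pck1 (-0.11 without Normoxia_PBS-2, to 0.28 without Normoxia_PBS-1) and Pnpla3 (-0.15 without Normoxia_PBS-1 and -0.018 without Hypoxia_DEX-1, to 0.43 without Normoxia_PBS-2). Of the values per named gene 2900 kept direction and call, 78 lost and 21 gained it, and of the list counts 1177 stayed within 1.5 times and 77 did not. The causes were not tested. With 3 libraries a group, changes near 1.5-fold were recovered in 49.3% of simulated cases. The simulation changed far fewer genes than were called in the data, so that share need not hold here. An uncalled gene may still differ by that much.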
